A study of Macaca mulatta with 12 samples.

Results

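The miR-376 family of the rhesus macaque (Macaca mulatta) was followed through 12 small RNA sequencing profiles. Its members were chosen by name: every pre-miRNA whose name begins with mml-mir-376 in the study's list of pre-miRNAs, of which 832 could be read here. These were 5 pre-miRNAs, mml-mir-376a-1, mml-mir-376a-2, mml-mir-376a-3, mml-mir-376b and mml-mir-376c. Together they carry 7 distinct mature sequences among 1219 in the list, because the 3 pre-miRNAs of miR-376a share an identical 3p arm and mml-mir-376a-2 and mml-mir-376a-3 share an identical 5p arm. The profiles came from untreated wild-type animals aged 36 months. There were 2 profiles each of kidney, of muscle, of the small and of the large intestine, and 1 each of liver, lung, occipital lobe and spinal cord. The tissues came from a pair of animals, and neither the labels nor the methods say which profile belongs to which animal. The edgeR and permutation p-values below therefore measure the spread between these profiles. Those of the binomial and Fisher's exact tests rest on the reads of 1 or 2 profiles. Occipital lobe and spinal cord formed the neural group, 2 profiles from different organs.

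MicroRNAs are cut from hairpin precursors as a 5p or a 3p arm, and the nucleotides near the 5′ end of the arm, the seed, pair with target mRNAs. ADAR enzymes deaminate adenosine to inosine in double-stranded RNA, and inosine is read as guanosine in sequencing, so that A-to-I editing appears as an A-to-G change. The miR-376 precursors, apart from the listed mml-mir-376a-3, lie in the large imprinted microRNA cluster that mammals express strongly in brain. Precursors of the family are well-known substrates of ADAR. The study's list places mml-mir-376a-3 on another sequence of the assembly and does not mark it as found by the study itself. Both of its arms are identical to those of mml-mir-376a-2, and whether it is a separate hairpin was not tested. In the RefSeq annotation of the macaque assembly T2T-MMU8v2.0, MIR376C, MIR376A-2, MIR376B and MIR376A-1 follow each other in this order on chromosome 7, between MIR495 and MIR1185-1, with MIR654 between MIR376A-2 and MIR376B.

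The mature sequences are shown as listed, because the edited base falls in the seed. Capitals mark the seed, which is bases 2 to 8 counted from the 5′ end of the mature sequence, and positions below are counted in the same way. The arms of miR-376a and miR-376b at the 3′ side share 1 seed.
miR-376a-3p: aUCAUAGAggaaaauccacgu
miR-376b-3p: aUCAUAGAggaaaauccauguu
miR-376c-3p: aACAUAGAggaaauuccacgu
miR-376a-1-5p: gUAGAUUCuccuucuaugaguac
miR-376a-2/3-5p: gUAGAUUUuccuucuaugguu
miR-376b-5p: cGUGGAUAuuccuucuauguuua
miR-376c-5p: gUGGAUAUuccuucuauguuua
The 3p arms of miR-376a and miR-376b have 18 identical leading bases and differ at position 19 over 21 compared bases. The 3p arms of miR-376a and miR-376c differ at positions 2 and 14. The 5p arm of miR-376b is that of miR-376c with 1 more base at its start, and the 4 reads that fitted both could not be told apart.

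Only 3 sites of these arms passed the criteria for an editing site, and all of them lay in the seed. They were A6G of miR-376a-3p, A6G of miR-376c-3p and A3G of miR-376a-1-5p, which give the following edited sequences.
miR-376a-3p, A6G: aUCAUGGAggaaaauccacgu
miR-376c-3p, A6G: aACAUGGAggaaauuccacgu
miR-376a-1-5p, A3G: gUGGAUUCuccuucuaugaguac
None of these 3 edited sequences is contained in any of the 832 pre-miRNAs, and 0 other listed mature sequences carry an edited seed. No genome sequence was used here, so whether the edited reads match the genome elsewhere was not tested. No DNA of these animals was used either, so whether an animal carries G in its genome at these sites was not tested. Below, an edited read is a read with G at the site. To be called in a profile, a site needed 10 or more edited reads, a level of 5% or higher and a p under 0.05 in a one-sided exact binomial test against an error rate of 0.001, adjusted by Benjamini-Hochberg over every pair of a site and a profile. Counted per pre-miRNA, 2.33% of 2665 A-to-G sites with a changed read were called over the whole list, and 5 of 13 on these arms. With identical arms counted once, these were 3 of 10. The whole list took in positions outside the mature arms and the family counts did not, so the shares cannot be compared directly. Changes of other kinds were seen at 27 further sites of the arms, and 0 of them passed.

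The family was rare. Depth ranged from 22118095 to 25579064 reads per profile, and 1238 reads in all belonged to a member with both ends within 2 nucleotides of the mature sequence and at most 1 mismatch. Levels are given in RPTM, reads per 10000000 sequenced reads. The summed level reached 166 RPTM in the occipital lobe profile, and the spinal cord had 144. Liver followed with 72.6 RPTM, and the remaining profiles lay between 6.97 RPTM in muscle 2 and 26.7 RPTM in large intestine 1. Both neural profiles were thus above each of the 10 others, and how many sequences of the list share this order was not counted. In such bulk tissue, fewer cells of a type and less RNA per cell cannot be told apart. MicroRNA markers of cell types stood highest where the labels place them: miR-124a-3p and miR-9-5p of neurons in occipital lobe, miR-219-2-3p and miR-338-3p of oligodendrocytes in spinal cord, miR-122a-5p of hepatocytes in liver, and miR-133a-3p, miR-206-3p and miR-208b-3p of muscle in muscle 2.

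miR-376a-1-5p was found mainly in the neural profiles. It had 146 reads in occipital lobe and 200 in spinal cord. The other profiles had 11 reads in liver, 8 and 4 in muscle 1 and 2, 7 and 4 in small intestine 1 and 2, 6 and 0 in large intestine 1 and 2, 5 and 3 in kidney 1 and 2, and 1 in lung. In RPTM, the neural profiles stood at 63.5 and 83.7, against a median of 1.85 and a highest value of 4.44 in the 10 others. These groups did not overlap. How many of all sequences separate in this way was not counted, and 43.7% of the 371 tested below were called higher in the neural group. Of all reads of the arm, 87.6% came from the 2 neural profiles. The 5p arm of mml-mir-376a-2 and mml-mir-376a-3, which differs from it at 3 of 21 compared positions, had 9 reads in all, 5 of them neural.

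**Figure D1:**
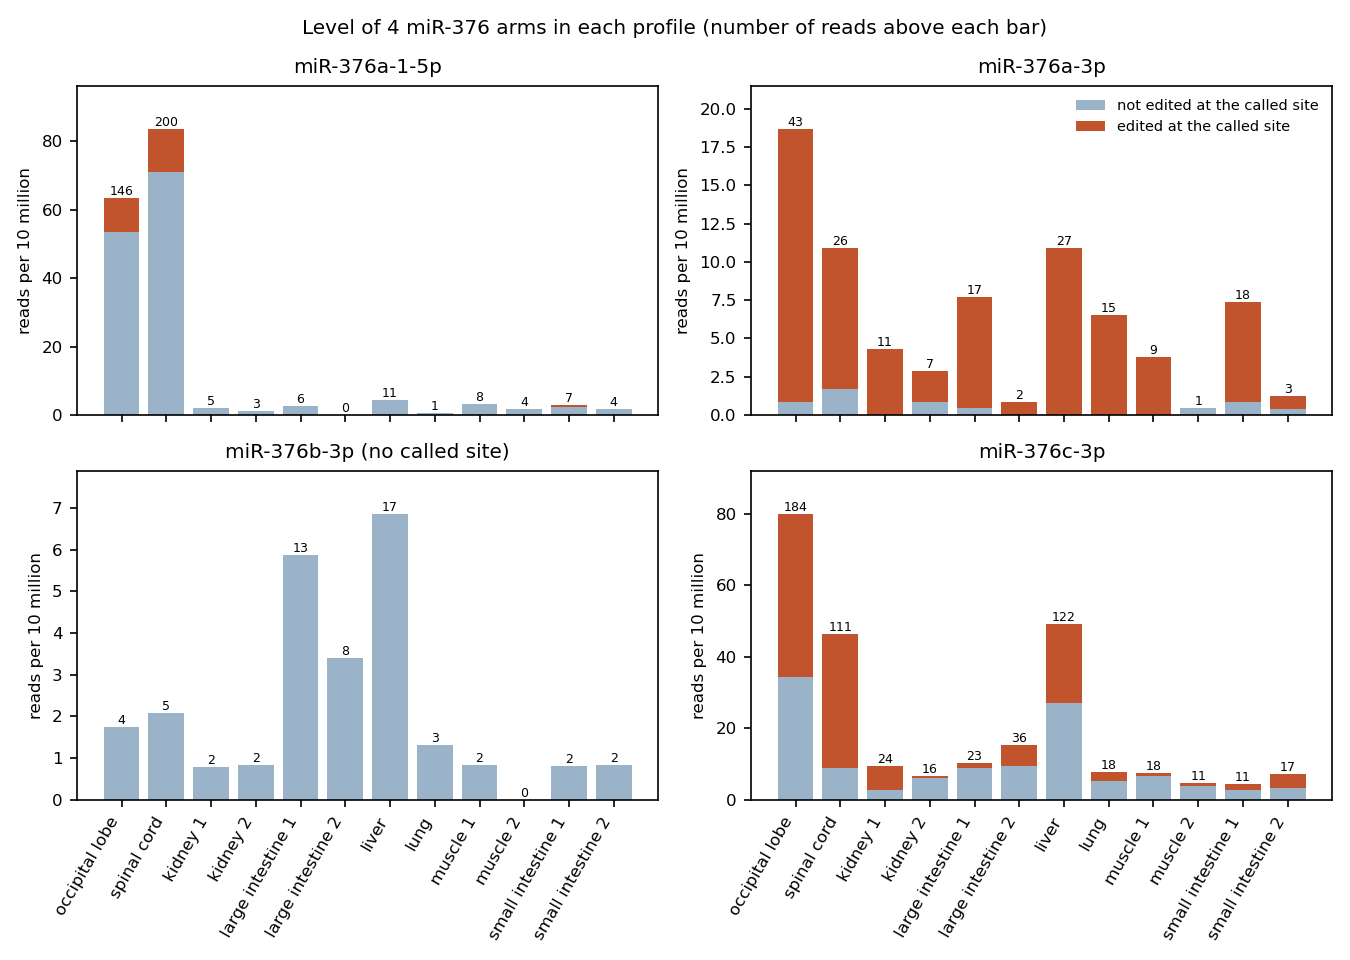
Level of 4 arms in each of the 12 profiles, in reads per 10000000 (linear axes that differ between panels), with the number of reads above each bar. Red is the portion with the called A-to-G change and blue the remainder; miR-376a-1-5p stands out in occipital lobe (146 reads) and spinal cord (200 reads), miR-376a-3p is nearly all edited, miR-376c-3p is mixed, and miR-376b-3p has no called site.

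miR-376c-3p had the most reads, 591, and was detected in every profile. It stood at 80.0 RPTM in occipital lobe (184 reads), 49.2 in liver (122 reads) and 46.4 in spinal cord (111 reads). The 9 other profiles ranged from 11 reads in muscle 2 and small intestine 1 to 36 reads in large intestine 2. Liver therefore lay between the neural profiles. miR-376a-3p was less frequent, with 179 reads over all 12 profiles. It had 43 reads in occipital lobe, 27 in liver, 26 in spinal cord, 18 in small intestine 1, 17 in large intestine 1 and 15 in lung, and between 1 and 11 in the other profiles. miR-376b-3p showed another order, with 17 reads in liver, 13 and 8 in large intestine 1 and 2, and at most 5 in any other profile, the neural ones included. With so few reads the differences in miR-376b-3p were not tested.

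Differences between tissues were tested with edgeR's quasi-likelihood test on exactly matching reads of 371 mature sequences that passed a filter on low values (mean of at least 5 RPTM, standard deviation of at least 1), each tissue group against the mean of the other groups. Only 2 of the 7 family sequences passed the filter, miR-376a-1-5p and miR-376c-3p. In the neural group miR-376a-1-5p was higher, with a log2 fold change of 4.06 (SE 0.66) and an adjusted p of 0.000167 (edgeR, Benjamini-Hochberg). In exactly matching reads it stood at 49.5 and 62.3 RPTM in the neural profiles and at most at 3.34 RPTM in the 10 others, so it passed the filter only through the group in which it was high and had to differ. Without the filter, over 773 sequences, its log2 fold change was 3.81 (SE 0.67, adjusted p = 7.94e-08, edgeR). In the same contrast 43.7% of all tested sequences were called higher, 24.3% were called lower, and the median log2 fold change over all of them was 0.89. By its fold change miR-376a-1-5p took place 50 among the 371. miR-376c-3p had a log2 fold change of 0.53 (SE 0.70, adjusted p = 0.506, edgeR), which is below that median.

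Exactly matching reads leave out the edited ones, and the call for miR-376c-3p changed when these were added. With reads of 1 mismatch added for every sequence of the list, its neural log2 fold change was 1.51 (SE 0.55) with an adjusted p of 0.0296 in edgeR. Both counts left out reads with a 3′ tail, that is, end bases not in the hairpin. Such reads were 31.5% of those of miR-376c-3p, from 12.5% in kidney 1 to 69.6% in large intestine 1. Levels with tailed reads included were not tested. With 1 mismatch added and the filter dropped as well, the log2 fold change of miR-376c-3p was 1.39 and did not pass (adjusted p = 0.054, edgeR). It also passed when total reads replaced the TMM factors, with 1.58 and an adjusted p of 0.0352, a scaling under which the median of all sequences was 1.97. Its direction relied on the occipital lobe, without which it was -0.67 (adjusted p = 0.557, edgeR). No family sequence passed in muscle, kidney, small intestine or large intestine. There, on exactly matching reads, 0 of 2 tested members had an unadjusted p under 0.05 in edgeR, and 0 in DESeq2. With 1 mismatch added, miR-376c-3p had a log2 fold change of -1.88 in muscle, with an unadjusted p of 0.0277 and an adjusted p of 0.0666 (edgeR). The shares of all sequences called higher in these tissues were 22.6%, 12.9%, 13.2% and 11.9%, and the shares called lower 15.4%, 4.58%, 4.58% and 4.85%.

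The cluster was taken here as the stretch from mml-mir-379 to mml-mir-656, and listed pre-miRNAs beyond it were not counted. The other pre-miRNAs of this stretch gave 33 tested mature sequences outside the family. In the neural group, where 43.7% of all tested sequences were called higher and 24.3% lower, 31 of 33 rose and 0 fell. Their median log2 fold change was 2.87 against 0.89 over all sequences. A sequence can pass the filter through the neural profiles alone, so these counts are a description. The largest value was that of mml-mir-541-3p, at 6.30 (SE 0.98, adjusted p = 0.000202, edgeR), and mml-mir-377-3p at 0.60 did not pass. In muscle 0 of 33 rose and 6 fell, with a median of -0.80 against -0.22. Of all tested sequences 22.6% were called higher there and 15.4% lower. In kidney, small intestine and large intestine none of the 33 was called by edgeR. Of all tested sequences 12.9%, 13.2% and 11.9% were called higher in these tissues, and 4.58%, 4.58% and 4.85% lower. The 5 sequences whose log2 levels followed the summed family level most closely over the 12 profiles all belonged to the cluster. They were mml-mir-411-5p (Pearson's r = 0.98), mml-mir-299-3p (0.96), mml-mir-369-5p (0.96), mml-mir-654-3p (0.96) and mml-mir-1185-1-5p (0.95). The median r was 0.89 over the 33 cluster sequences and 0.49 over all 369 compared, and the points share libraries and depth, so these are descriptions.

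The same position 6 had 3 different states in the 3p arms. miR-376a-3p was nearly always edited: 166 of 179 reads carried G, a pooled level of 92.7% (95% Wilson interval 88.0 to 95.7). miR-376c-3p was edited in 308 of 591 reads, 52.1% (48.1 to 56.1). miR-376b-3p was edited in 0 of 60 reads, which allows a level of up to 5.0% (Wilson interval up to 6.02). Sequencing reads carry no molecular identifiers here, so that all intervals cover counting error only.

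**Figure D2:**
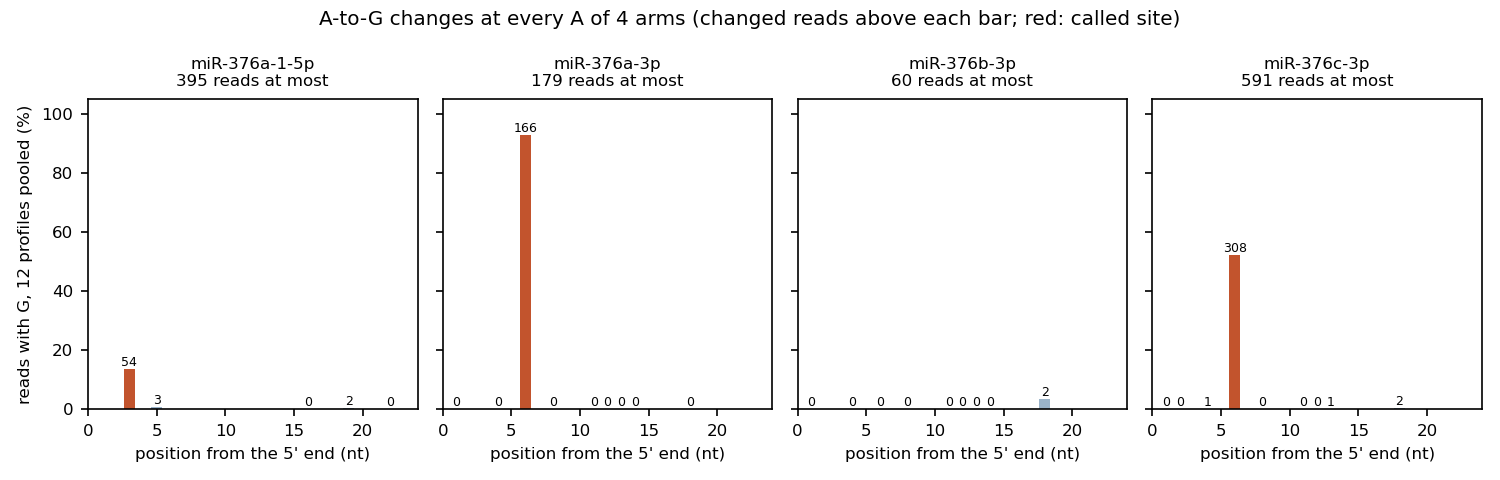
Share of reads with G at every A of 4 arms, pooled over the 12 profiles, against position from the 5′ end in nucleotides, with the number of changed reads above each bar. Position 3 of miR-376a-1-5p (54 reads) and position 6 of miR-376a-3p (166) and miR-376c-3p (308) are the called sites (red); with 1 mismatch allowed, reads changed there cannot show a second change, while position 6 of miR-376b-3p has 0 changed reads.

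At position 6 of miR-376a-3p, occipital lobe had 41 edited of 43 reads (95.3%, interval 84.5 to 98.7) and spinal cord 22 of 26 (84.6%, 66.5 to 93.9). Liver had 27 of 27, lung 15 of 15, kidney 1 11 of 11, muscle 1 9 of 9 and large intestine 2 2 of 2. The remaining profiles had 16 of 17 reads in large intestine 1, 16 of 18 in small intestine 1, 5 of 7 in kidney 2, 2 of 3 in small intestine 2 and 0 of 1 in muscle 2. Edited reads were thus found in 11 of 12 profiles, and unedited reads were 13 in all. The site was called in 7 profiles, at levels from 84.6% to 100%. Only liver among the other profiles reached the 20 reads required for a comparison, so the neural group was not tested against the others. With at least 10 reads, a mean of 90.0% in 2 neural profiles stood against 96.6% ± 5.0 (SD, n = 5) in 5 others, a difference of -6.62 percentage points with p = 0.286 in a two-sided exact permutation test, whose smallest possible p is 0.0952.

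miR-376b-3p, with the same 18 leading bases, had no edited read in the same libraries. Liver had 27 of 27 edited reads on miR-376a-3p and 0 of 17 on miR-376b-3p (Wilson interval 0 to 18.4). Large intestine 1 had 16 of 17 and 0 of 13 (0 to 22.8). The neural profiles gave 0 of 4 and 0 of 5 reads on miR-376b-3p, too few to place the level there.

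Reads with A6G of miR-376c-3p were found in every profile, and the site was called in 5 of them, at levels from 38.9% to 81.1%. The highest were 81.1% in spinal cord (90 of 111 reads, interval 72.8 to 87.3), 70.8% in kidney 1 (17 of 24, 50.8 to 85.1) and 57.1% in occipital lobe (105 of 184, 49.8 to 64.0). They were followed by 52.9% in small intestine 2 (9 of 17), 45.1% in liver (55 of 122, 36.5 to 53.9), 38.9% in large intestine 2 (14 of 36), 36.4% in small intestine 1 (4 of 11) and 33.3% in lung (6 of 18). The lowest were 18.2% in muscle 2 (2 of 11), 13.0% in large intestine 1 (3 of 23), 11.1% in muscle 1 (2 of 18) and 6.25% in kidney 2 (1 of 16, 1.11 to 28.3). Neighbours in this order had overlapping intervals, whereas the interval of spinal cord lay above those of occipital lobe and liver.

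**Figure D3:**
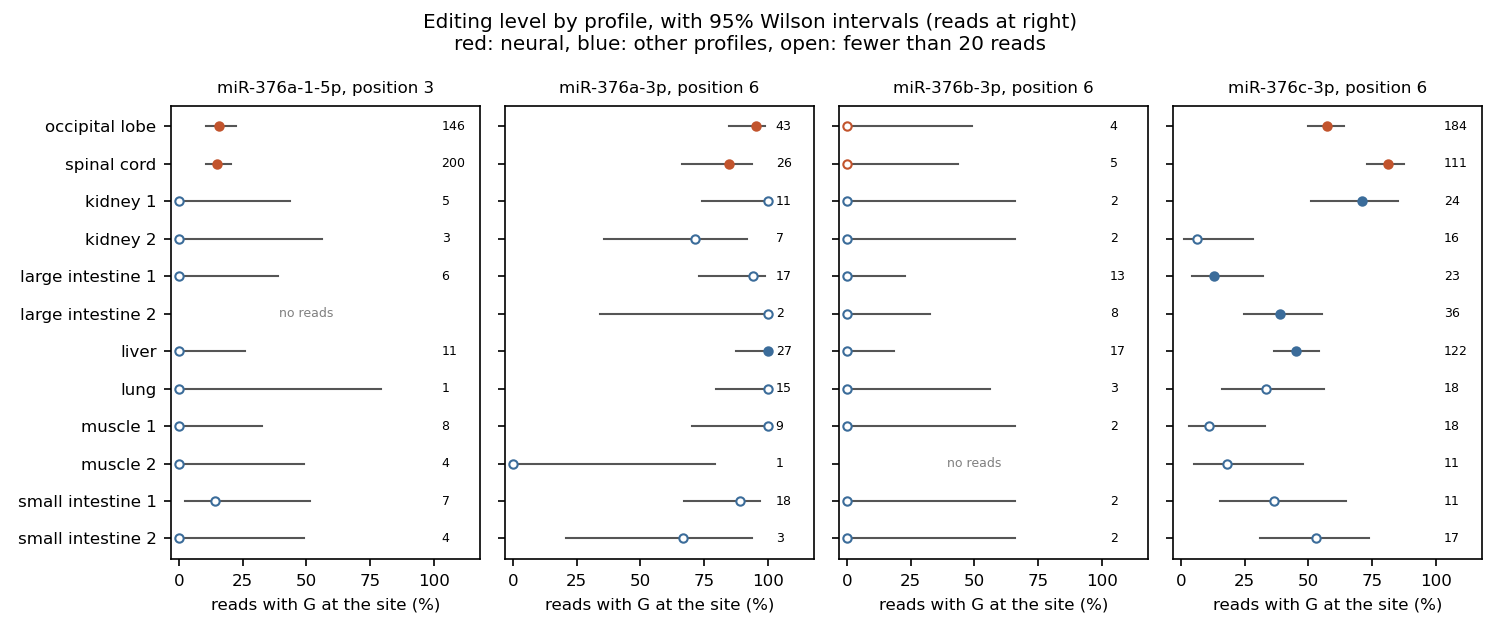
Editing level, in percent of reads with G, at 4 sites in each profile, with 95% Wilson intervals and the number of reads at the right of each row; red points are neural, blue points other profiles, and open points rest on fewer than 20 reads. miR-376a-3p lies between 84.6% and 100% in the profiles with at least 10 reads, miR-376b-3p at 0%, and miR-376c-3p ranges from 6.25% in kidney 2 to 81.1% in spinal cord.

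For miR-376c-3p the neural group was compared with the profiles that had at least 20 reads. The mean level was 69.1% in 2 neural profiles and 42.0% ± 23.7 (SD, n = 4) in kidney 1, large intestine 1, large intestine 2 and liver. The difference of 27.1 percentage points had p = 0.267 in a two-sided exact permutation test, where 0.133 is the smallest p that 2 against 4 profiles can give, so this design could not reach 0.05. Without spinal cord the difference was 15.1 points (exact permutation p = 0.8), and without large intestine 1 it was 17.5. With at least 10 reads all 10 other profiles entered with a mean of 32.6% ± 20.6 (SD, n = 10), and the difference of 36.5 points had an exact permutation p of 0.0606 (smallest possible 0.0303). Kidney 1 was the profile that lay above occipital lobe.

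The 2 profiles of kidney differed at this site by 64.6 percentage points, 17 of 24 against 1 of 16 reads (Fisher's exact test p = 6.16e-05). Those of large intestine differed by 25.8 points (p = 0.0415, Fisher's exact test). Those of small intestine and muscle differed by 16.6 and 7.07 points (Fisher's exact p = 0.46 and 0.622). Occipital lobe and spinal cord differed by 24.0 points (Fisher's exact p = 2.43e-05). These tests compare the reads of 2 libraries and not 2 conditions, and the 7 such tests made on the 3 called sites were not adjusted for each other.

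A3G of miR-376a-1-5p was called only in the 2 neural profiles, which held most reads of the arm. Occipital lobe had 23 edited of 146 reads, 15.8% (10.7 to 22.5), and spinal cord 30 of 200, 15.0% (10.7 to 20.6). The neural profiles differed by 0.75 points (Fisher's exact p = 0.881). The 10 other profiles had 1 edited read of 49 together, in small intestine 1, and each had 11 reads or fewer. When all reads over the site were used, shortened ones included, the levels were 12.8% (31 of 243) in occipital lobe and 13.5% (32 of 237) in spinal cord. Small intestine 1 then had 4 edited of 12 reads, 33.3% (adjusted p = 1.07e-08 in the exact binomial test), which missed the required 10 edited reads, and small intestine 2 had 1 of 8. The other profiles with reads had 0 edited of 2 to 15 reads, too few to place their levels below those of the neural profiles. The 5p arm of mml-mir-376a-2 and mml-mir-376a-3 carried the change A3G in 3 of 9 reads, all 3 of them neural, and was not called.

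Other adenosines could be read only in part, since counts allow 1 mismatch and a read with the called change cannot show another. Position 4 of the 3p arms, which lies 2 bases before the edited site, was changed in 0 of the 13 miR-376a-3p reads without A6G and in 1 of the 283 miR-376c-3p reads without it. Position 5 of miR-376a-1-5p was changed in 3 of the 341 reads without A3G. Reads with 2 A-to-G changes were counted apart, and there were 20 on miR-376a-3p, 15 of them with A6G and A18G, and 10 on miR-376c-3p.

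The arms of miR-376a were compared next. In occipital lobe 43 reads came from the 3p and 149 from the 5p arms, a 3p share of 22.4% (17.1 to 28.8), and in spinal cord 26 and 202, a share of 11.4% (7.90 to 16.2). In small intestine 1, large intestine 1 and liver the 3p share was 72.0% (52.4 to 85.7), 73.9% (53.5 to 87.5) and 65.9% (50.5 to 78.4). The means were 16.9% in 2 neural profiles and 70.6% ± 4.21 (SD, n = 3) in these 3, a difference of -53.7 percentage points. Fewer than the 4 other profiles required had 20 reads, so no test was made. With at least 10 reads the 7 other profiles ranged from 52.9% to 93.8%, and the difference of -54.1 points had an exact two-sided permutation p of 0.0556, which is the smallest that 2 against 7 profiles allow. Muscle 2 with 1 of 5 and small intestine 2 with 3 of 8 reads on the 3p arm fell below that range. The 5p reads with an end more than 2 nucleotides away, such as shortened ones, are left out of these shares. With them, position 3 of miR-376a-1-5p was covered by 243 reads in occipital lobe and 237 in spinal cord. It was covered by 15 in liver, 13 in muscle 1 and 12 in small intestine 1. On miR-376a-3p no such reads were added in these profiles, so 3p shares that include them would be lower. The 3 pre-miRNAs share the 3p arm, so the share of any single hairpin cannot be told apart. For miR-376c no read was assigned to the 5p arm alone, and the 3p share was 100% in each profile with at least 20 reads. miR-376b likewise had 3p reads only. The 4 reads shared by both 5p arms are left out of these shares, and counted for each they gave miR-376b a 3p share of 57.1% in occipital lobe (4 against 3 reads) and 83.3% in spinal cord (5 against 1).

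**Figure D4:**
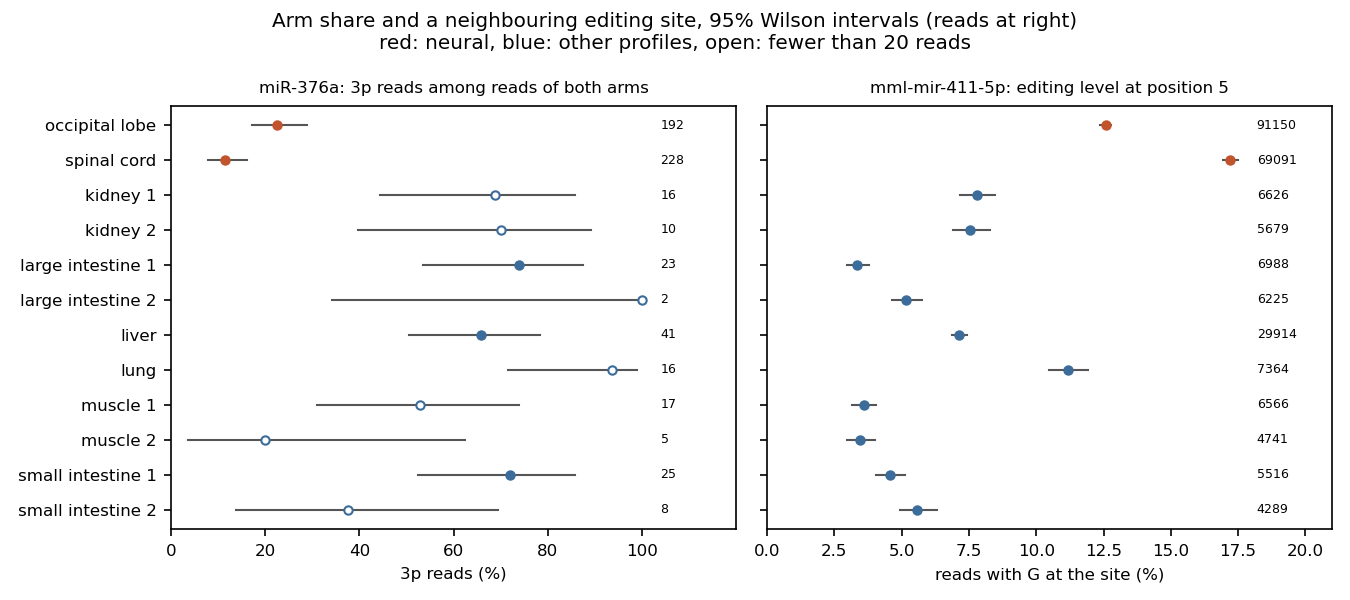
Left, share of 3p reads among all reads of the miR-376a arms by profile; right, editing level at position 5 of mml-mir-411-5p by profile; both in percent with 95% Wilson intervals and the number of reads at the right, red for neural and blue for other profiles, open below 20 reads. The 3p share is 22.4% and 11.4% in the neural profiles, and the level of mml-mir-411-5p is highest there, at 12.6% and 17.2%.

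2 edited neighbours of the cluster were examined in the same way. mml-mir-411-5p, edited at position 5 of the mature sequence, had 4289 to 91150 reads per profile and so far narrower intervals. Its level was 17.2% in spinal cord and 12.6% in occipital lobe, against 3.35% to 11.2% in the 10 others, of which lung was the highest. The difference of 8.96 percentage points had an exact permutation p of 0.0303, the smallest that 2 against 10 profiles allow. Without occipital lobe the difference was 11.3 points and without spinal cord 6.64, each with an exact permutation p of 0.182, the smallest possible with 1 neural profile. mml-mir-379-5p, also at position 5, was edited in 24 of 199 reads in spinal cord (12.1%) and 6 of 106 in occipital lobe (5.66%), against a mean of 1.65% ± 2.34 (SD, n = 5) in the others with at least 20 reads (difference 7.22 points, exact permutation p = 0.0952, the smallest possible). Without spinal cord this difference was 4.02 points (exact permutation p = 0.333). Over the 3 sites tested the Benjamini-Hochberg adjusted p was 0.0909 for mml-mir-411-5p, 0.143 for mml-mir-379-5p and 0.267 for miR-376c-3p. At miR-376c-3p and mml-mir-411-5p alike, spinal cord was above occipital lobe, but kidney 1, at 70.8% for miR-376c-3p, had 7.79% at mml-mir-411-5p against 7.55% in kidney 2.

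Edited and unedited reads started at the same base. The start of the mature sequence was used by 99.4% of edited and 97.9% of unedited miR-376c-3p reads, by 99.4% and 100% of those of miR-376a-3p, and by 96.3% and 97.9% of those of miR-376a-1-5p, so the edited base kept its place in the seed. The 3′ ends varied more. A non-templated 3′ tail was present on 23.7% of edited and 39.9% of unedited miR-376c-3p reads, most often a single C in both. miR-376a-1-5p had tails on 3.70% and 2.93%. These shares pool profiles with different levels of editing and were not tested.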

How the data were processed

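The authors deposited, for each of the 12 profiles, counts of unique sequences of at least 18 nucleotides after quality filtering and removal of the 3′ adapter, without normalization. The pre-miRNA list was the study's own, of which 832 entries were read and further entries were not used here. The family and the lists were chosen with earlier results of these data known. Sequences were aligned to all 832 pre-miRNAs without gaps, with at most 1 mismatch and a 3′ tail of at most 2 nucleotides, and the best alignments were kept (Python 3.11.15, numba 0.67.0, scipy 1.17.1). In the read counts of the family arms, reads that fitted different mature sequences equally well were counted for neither. The counts for the edgeR tests took such reads for each sequence, and site calls took a read at each pre-miRNA that it fitted. A change at the last base of a read counts as a tail. No genome was used, so reads that match the genome elsewhere were not removed. The tests of levels used edgeR 4.0.16 under R 4.3.3 (TMM, 7 groups, neural tissues as 1) on exactly matching reads without a tail. DESeq2 1.42.0 was an alternative. Standard errors come from the F statistic of the edgeR test. Log2 levels used a pseudocount of 1. Profiles entered comparisons of shares with at least 20 reads. Replicate profiles of a tissue differed by more than sampling noise. Of the named sequences outside the family, 5 were those most like its summed level. The sites of mml-mir-411 and mml-mir-379 were taken because the paper shows them as examples of A-to-I editing. mml-mir-541-3p and mml-mir-377-3p had the largest and smallest neural fold change among the cluster sequences. Cell type markers served only to check the tissue labels. Both parts were run on simulated data. Of A-to-G sites simulated at 200 reads each, 98% at a level of 15% and 100% at 50% were recovered. There were 17 false calls of any change over 200 mature sequences. Of simulated 2-fold and 4-fold level changes, 62% and 92% were recovered, and 3.51% of unchanged sequences were called. That simulation used no TMM factors, unlike the main test.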

Additional observations from a re-analysis of the deposited data

Results flagged for a closer look

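Reads with 2 A-to-G changes lay outside the counts above, which allow 1 mismatch. miR-376a-3p had 20 such reads and miR-376c-3p had 10, above the 3 reads that a count of 0 allows. All 20 reads of miR-376a-3p carried A6G, and 15 of them carried A18G as well, 10 in occipital lobe and 5 in liver. Their most frequent form is shown with the changed bases in capitals.
miR-376a-3p, A6G and A18G: aucauGgaggaaaauccGcg
Of the 10 reads of miR-376c-3p, 4 carried A2G and A11G, all in liver, and the others combined A6G with a second site. Whether these reads match the genome elsewhere was not tested.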

How the results depend on the processing

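In the neural group 2 members were called instead of 1 with total reads in place of TMM, with 1 mismatch added, and with both together (chosen after seeing the data). The added member was miR-376c-3p, at 1.58, 1.51 and 2.62. It was not called with 1 mismatch added and no filter (also chosen after seeing the data, 1.39, adjusted p = 0.054, edgeR), and without occipital lobe it turned to -0.67 (range over left-out profiles -0.67 to 1.19). miR-376a-1-5p stayed between 3.60 and 4.97 with a profile left out. When reads had to be identical to the mature sequence over its whole length, no member passed the filter, so that no value was had. miR-376a-1-5p was called in the neural group wherever it passed the filter. It passed only through the neural profiles and so had to differ, which makes these calls no measure of stability. The fits with a profile left out tested 371 sequences, as the main fit did, so this limit holds for them too. With the filter dropped, miR-376a-1-5p was still called, at 3.81 (SE 0.67, adjusted p = 7.94e-08, edgeR). Comparisons with no p, or too small to reach 0.05, say nothing of stability. Requiring at least 100 edited reads left 1 site and 1 site and profile pair. Without a profile the difference in the 3p share of miR-376a lay between -59.2 and -48.2 points, and that of mml-mir-411 between 6.64 and 11.3 (exact permutation p up to 0.182, since 1 neural profile against 10 cannot reach 0.05). The difference for miR-376c-3p lay between 15.1 and 39.1 points and that for mml-mir-379 between 4.02 and 10.4, in designs too small to pass 0.05. At 10 reads mml-mir-379 gave 7.83 points (exact permutation p = 0.0444). With the replicate block on the 8 numbered profiles 0 members were called in each of the 4 tissues, as without it. Deviations of same-numbered profiles correlated at -0.139 to 0.153 over 6 pairs, so the numbers were not taken to pair them. Too few reads prevented a contrast for position 3 of miR-376a-1-5p and the 3p share of miR-376b.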

Other observations

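At miR-376c-3p, profiles with a higher share of tailed reads had lower editing levels. The tailed share ran from 12.5% in kidney 1 (editing level 70.8%) to 69.6% in large intestine 1 (13.0%). Over the 12 profiles Pearson's r was -0.79 and Spearman's rho -0.75, and r was -0.74 without the 2 profiles farthest from the median, large intestine 1 and muscle 1. This relation was noticed after the values were seen, rests on as few as 11 reads a profile and is a description across libraries. Within occipital lobe 31 of 105 edited and 37 of 79 unedited reads had a tail, within liver 14 of 55 and 23 of 67, and within spinal cord 17 of 90 and 5 of 21. The order was reversed in small intestine 1 (2 of 4 and 1 of 7), small intestine 2 (3 of 9 and 0 of 8) and kidney 2 (1 of 1 and 7 of 15). In the remaining profiles unedited reads were the more often tailed. At mml-mir-411-5p tails were on 1.35% to 2.66% of reads, with r = -0.24 over the same 12 profiles and -0.52 without the 2 farthest, liver and lung. There edited reads were the more often tailed in every profile but small intestine 2, with 2.65% against 1.59% in occipital lobe. At miR-376a-3p r was 0.18 over the 7 profiles with at least 10 reads, and 0.58 without kidney 1 and small intestine 1.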
